A study of Homo sapiens with 4 samples.

Results

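CpG islands bound by the forkhead factor FOXK2 away from annotated promoters were examined in OVCAR5 cells, an established ovarian cancer line that the sample labels give as high grade serous. FOXK2 binding was mapped by ChIP-seq in 2 biological replicates of 1 condition, cells grown in culture with no treatment named, and peaks were called separately in each. A peak was taken when its deposited detailed annotation named a CpG island and its deposited annotation was not a promoter. This gave 352 of 12471 peaks in replicate 1 and 631 of 27281 peaks in replicate 2, or 983 of 39752 peaks over both lists. They are called island peaks here. The deposited annotation names an island only for peaks that lie in introns or between genes, so no promoter peak carries the name. The island peaks were compared with the other peaks outside promoters (9409 and 21740 peaks) and with the promoter peaks (2709 and 4910 peaks). The replicates share 1 cell line and 1 condition, and no other condition was analysed here.

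CpG islands are stretches of DNA rich in G and C that have kept their CpG dinucleotides, and most are free of DNA methylation. Many mark the promoters of broadly expressed genes. Islands away from annotated promoters can hold alternative promoters, starts of noncoding RNAs or distal regulatory elements. FOXK2 and its paralog FOXK1 bind DNA through a winged-helix forkhead domain that recognizes TGTTTAC, or GTAAACA on the opposite strand, and they recruit chromatin-modifying complexes to their sites.

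The sequences of 5 island peaks are shown for the contrast between strong sites with and without the forkhead heptamer. They are the 3 best-scoring loci with TGTTTAC and the best 2 without it, among the top loci found in both replicates and outside untranslated regions. Each is the whole 211-base peak of replicate 1, read from hg38 on the plus strand. Capitals mark TGTTTAC near CCNE1 and BAHCC1 and in JADE2, the E-box CACGTG near PLA2G1B, and overlapping copies of the related core TGTTTAT on both strands near FOXK1. The CCNE1 peak lies at chr19:29844372-29844582 and the BAHCC1 peak at chr17:81394000-81394210, both between genes. The JADE2 peak lies in intron 1 of that gene, at chr5:134526854-134527064. The PLA2G1B and FOXK1 peaks lie between genes, at chr12:120317704-120317914 and chr7:4641851-4642061.
CCNE1: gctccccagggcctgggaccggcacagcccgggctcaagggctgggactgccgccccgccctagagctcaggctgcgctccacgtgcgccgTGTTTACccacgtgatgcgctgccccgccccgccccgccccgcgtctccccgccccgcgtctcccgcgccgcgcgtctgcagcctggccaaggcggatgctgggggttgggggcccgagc
BAHCC1: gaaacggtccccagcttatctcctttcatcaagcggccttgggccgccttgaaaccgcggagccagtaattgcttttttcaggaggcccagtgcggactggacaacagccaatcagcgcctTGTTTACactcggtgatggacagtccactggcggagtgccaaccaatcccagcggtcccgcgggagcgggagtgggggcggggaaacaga
JADE2: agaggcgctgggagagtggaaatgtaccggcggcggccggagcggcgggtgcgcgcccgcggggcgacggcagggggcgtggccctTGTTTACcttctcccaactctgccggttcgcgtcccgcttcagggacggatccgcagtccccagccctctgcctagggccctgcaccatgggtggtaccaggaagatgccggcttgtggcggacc
PLA2G1B: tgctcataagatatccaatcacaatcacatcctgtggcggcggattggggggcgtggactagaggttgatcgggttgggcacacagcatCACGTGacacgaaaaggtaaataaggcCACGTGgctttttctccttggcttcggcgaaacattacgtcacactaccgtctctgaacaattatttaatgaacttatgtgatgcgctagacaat
FOXK1: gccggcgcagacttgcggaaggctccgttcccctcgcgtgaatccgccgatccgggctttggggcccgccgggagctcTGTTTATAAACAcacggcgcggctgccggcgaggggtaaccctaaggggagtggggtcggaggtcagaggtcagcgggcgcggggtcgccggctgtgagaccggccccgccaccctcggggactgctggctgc

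The heptamer lay close to the centre of the peak in the first 3 sequences, at -11 bp in the CCNE1 peak, 19 bp in the BAHCC1 peak and -16 bp in the JADE2 peak. The CCNE1 peak had 25 CpG dinucleotides, 2 E-boxes (CACGTG) flanking the heptamer and 5 copies of the SP1/KLF box GGGCGGGG on the minus strand, some of them overlapping. The BAHCC1 peak had 14 CpG dinucleotides and 1 NFY box (CCAATNAG) at 7 bp. In the PLA2G1B peak the E-boxes lay at -13 and 14 bp from the centre, and neither TGTTTAC nor TGTTTAT was found. Between the E-boxes lay GTAAATA, which differs from GTAAACA by 1 base and was not among the motifs searched. The lack of the exact heptamer therefore does not mean that no forkhead-like sequence was present. That peak had a GC content of 47.8%, below the 70.6% of the FOXK1 peak.

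The strongest island locus was near CCNE1, the gene for cyclin E1, which drives entry into S phase. The peak lay 32483 bp downstream of the TSS to which it was assigned. Its peak score, a tag count scaled by HOMER, was 54.5 in replicate 1 and 117.2 in replicate 2, rank 12 and rank 7 of all peaks. The peak upstream of BAHCC1, which encodes a chromatin protein with a BAH domain, scored 49.6 and 112.7 (ranks 15 and 12). The peak in JADE2, a scaffold subunit of a histone acetyltransferase complex, scored 47.9 and 104.4 (ranks 18 and 15). Scores were higher in replicate 2 at each of these loci, but their scale differs between libraries, and only ranks within a list were compared. All 3 loci ranked among the best 20 peaks of both replicates.

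The next loci ranked just below these. The peak assigned to UBALD1 scored 41.3 and 86.0 and held 2 heptamers; its centre lay at -14 bp from a GENCODE transcript start of MGRN1, an E3 ubiquitin ligase gene. A peak assigned to the microRNA gene MIR4714 lay in intron 2 of IGF1R, the insulin-like growth factor 1 receptor gene, and scored 39.6 and 81.6. The peak assigned to PLA2G1B, a secreted phospholipase A2 gene, scored 39.8 and 80.5. The peak at -40343 bp from the FOXK1 TSS scored 39.2 and 78.8, and its centre lay at -292 bp from the start of an unnamed lncRNA. These 4 loci had ranks between 23 and 37 in both lists.

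Among the other loci of the best 15 was EZH1, a histone H3K27 methyltransferase gene (scores 38.3 and 73.2). HES1, a repressor induced by Notch signaling, had a peak at -1212 bp from its TSS with scores of 33.2 and 61.4. CBX7 and CBX8 encode chromodomain subunits of Polycomb repressive complex 1. The CBX7 peak, in intron 2, scored 29.6 and 72.1, and the CBX8 peak, between genes, scored 25.8 and 46.4. Others of the best 15 were assigned to UBALD2 (30.6 and 65), the pseudogene ASB9P1 (32.1 and 46.1) and CLPX, which encodes the unfoldase of the mitochondrial ClpXP protease (25.5 and 49.7). The ASB9P1 peak lay 414 bp downstream of a transcript start of FAM174B. Of the best 15 loci, 9 held TGTTTAC in both peaks, 8 lay between genes and 7 lay in a GENCODE promoter.

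**Figure D1:**
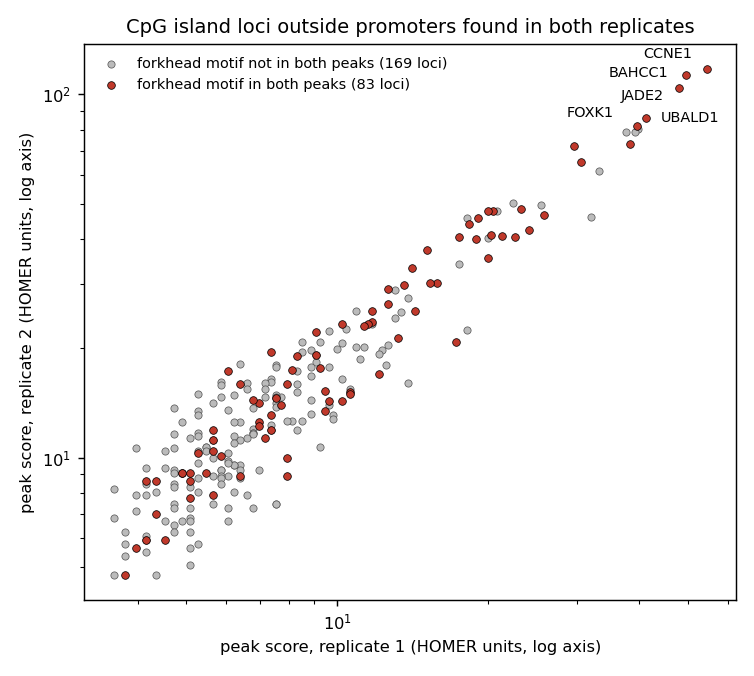
Each point is 1 of the 252 loci that were island peaks in both replicates, with the HOMER peak score of replicate 1 on the horizontal axis and of replicate 2 on the vertical axis, both logarithmic. Red points are the 83 loci with the forkhead heptamer TGTTTAC in both peaks and grey points the other 169; CCNE1, BAHCC1 and JADE2 stand at the upper right.

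In all, 252 loci, assigned to 240 genes, were island peaks in both replicates. They made up 71.6% of the island peaks of replicate 1 and 39.9% of those of replicate 2. The 24 overlapped island peaks of replicate 1 that were not island peaks in replicate 2 met 19 other peaks outside promoters and 5 promoter peaks. Among the 252 loci, Spearman's rho of the score percentiles of the replicates was 0.90, a description over loci that share 2 libraries. The median distance between the paired centres was 24 bp. Heptamers were present in both peaks of 83 loci (32.9%).

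Island peaks were rich in G, C and CpG. The label itself rests on this property, so no test was made. Within 100 bp of the centre, median GC content was 67.7% in replicate 1 and 68.2% in replicate 2, against 44.3% and 43.8% in the other peaks outside promoters and 63.2% and 63.7% in promoter peaks. The median observed over expected CpG ratio was 0.858 and 0.839, against 0.204 and 0.194 in the other peaks outside promoters. A GC content of at least 55% with a ratio of at least 0.65 was met by 84.4% and 84.8% of island peaks. The remaining island peaks did not reach these limits in this short window. Windows 2000 bp away had a median GC content of 46.8% and 47.8%.

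Most island peaks lay in introns, 229 of 352 (65.1%) in replicate 1 and 387 of 631 (61.3%) in replicate 2, and the rest between genes. Of the intronic ones, 75.5% and 72.4% lay in intron 1, against 38.0% and 36.3% of the other intronic peaks outside promoters. The median distance to the assigned TSS was 1552 bp and 2214 bp, against 30188 bp in replicate 1 for the other peaks outside promoters. The assigned gene differed from the gene holding the intron for 11.2% and 16.2% of the intronic island peaks whose intron could be matched to a gene symbol. By chromosome, the share of peaks that were island peaks was highest on chromosome X in replicate 1 (8 of 89 peaks, 8.99%) and on chromosome 19 in replicate 2 (58 of 855 peaks, 6.78%). It was 7.02% on chromosome 19 in replicate 1 and 4.72% on chromosome X in replicate 2.

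To ask how many of these peaks lay at starts that the deposited annotation did not use, they were compared with GENCODE 44. A centre from 1000 bp upstream to 100 bp downstream of any transcript start counted as promoter. This held for 159 of 352 island peaks in replicate 1 (45.2%, Wilson 95% interval 40.1 to 50.4) and 277 of 631 in replicate 2 (43.9%, 40.1 to 47.8). The share over all peaks was 29.5% and 25.2%. Other peaks outside promoters were at such a start in 8.89% and 7.99%, and the differences gave odds ratios of 8.45 (adjusted exact p = 2.0e-67) and 9.01 (adjusted exact p = 2.5e-124). With starts of protein-coding transcripts only, 21.6% and 20.3% of island peaks were at a start, against 3.74% and 3.07% of the other peaks. Limited to peaks within 5000 bp of the assigned TSS and to starts of any transcript, the odds ratios were 2.72 and 2.98 (adjusted exact p = 2.0e-11 and 4.5e-21). Within 1000 bp the order was the opposite, with 53.5% and 48.0% of island peaks against 61.3% and 58.1% of the other peaks, a difference that was not tested. Promoter peaks, which the deposited annotation placed at a TSS, were at a GENCODE start in 99.2% and 98.9%. Median distance to the nearest GENCODE start was 358 bp and 369 bp for island peaks. Of the island peaks in a GENCODE promoter, 40.9% and 42.6% had their nearest start in a gene with another name than the assigned one. The nearest start was that of a protein-coding transcript for 43.8% and 39.1% of all island peaks, against 25.2% and 24.7% of the other peaks outside promoters. It was that of an lncRNA for 23.3% and 26.5%, against 28.7% and 28.4%. Examples were MGRN1 at the UBALD1 peak and an lncRNA at the FOXK1 peak.

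With all scores pooled, island peaks recurred more often than the other peaks outside promoters in replicate 2. The difference in replicate 1 and those from promoter peaks did not pass the threshold with the lists as deposited. In replicate 1, 276 of 352 (78.4%, 73.8 to 82.4) overlapped a peak of replicate 2 by at least 1 bp. The share over all peaks of replicate 1 was 74.9%, and it was 73.6% in the other peaks outside promoters (adjusted exact p = 0.0962) and 79.1% in promoter peaks (adjusted exact p = 0.728). In replicate 2, 270 of 631 (42.8%, 39.0 to 46.7) overlapped a peak of replicate 1, where the share over all peaks was 34.2%. It was 31.8% in the other peaks outside promoters (odds ratio 1.60, adjusted exact p = 5.1e-08) and 43.9% in promoter peaks (adjusted exact p = 0.728). The list of replicate 2 is the longer one, so fewer of its peaks could find a partner. Within bins of 20% of the scores, the order of these 2 classes outside promoters changed between bins in each replicate. From the lowest to the highest bin of replicate 2, 3.488%, 16.8%, 24.8%, 50.4% and 84.1% of island peaks recurred. Of the other peaks outside promoters, 3.699%, 12.1%, 26.5%, 48.2% and 79.6% did. The bins were not tested, and neither was the part of score in the pooled difference. With replicate 2 limited to as many peaks as replicate 1, the difference from the other peaks outside promoters in replicate 1 was 9.79 percentage points (adjusted exact p = 0.0011). With the same limit, the difference from promoter peaks in replicate 2 turned from -1.14 to 6.21 percentage points and passed (adjusted exact p = 0.0343), while in replicate 1 it was -0.19 percentage points and did not pass.

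High scores were more frequent among island peaks than among the other peaks outside promoters, though not in the peaks farthest from the assigned TSS. In replicate 1, 59 of 352 (16.8%, 13.2 to 21.0) were in the top 10% of scores, against 8.17% of the other peaks outside promoters (odds ratio 2.26, adjusted exact p = 5.5e-07) and 16.02% of promoter peaks (adjusted exact p = 0.701). In replicate 2, 97 of 631 (15.4%, 12.8 to 18.4) were, against 8.33% (odds ratio 2.00, adjusted exact p = 4.7e-08) and 17.2% (adjusted exact p = 0.347). Over all peaks the share was 10.1% in replicate 1 and 10.1% in replicate 2, since ties at the limit were kept. Beyond 20000 bp from the assigned TSS, it was 7.69% of island peaks and 7.94% of the other peaks outside promoters in replicate 1. In replicate 2 these were 7.09% and 7.78%. In every nearer bin of distance the share was higher in island peaks, and the bins were not tested. The median score percentile of island peaks was 54.9 and 59.5. Promoter peaks had medians of 59.7 and 64.1, and the other peaks outside promoters had medians of 45.9 and 46.9.

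**Figure D2:**
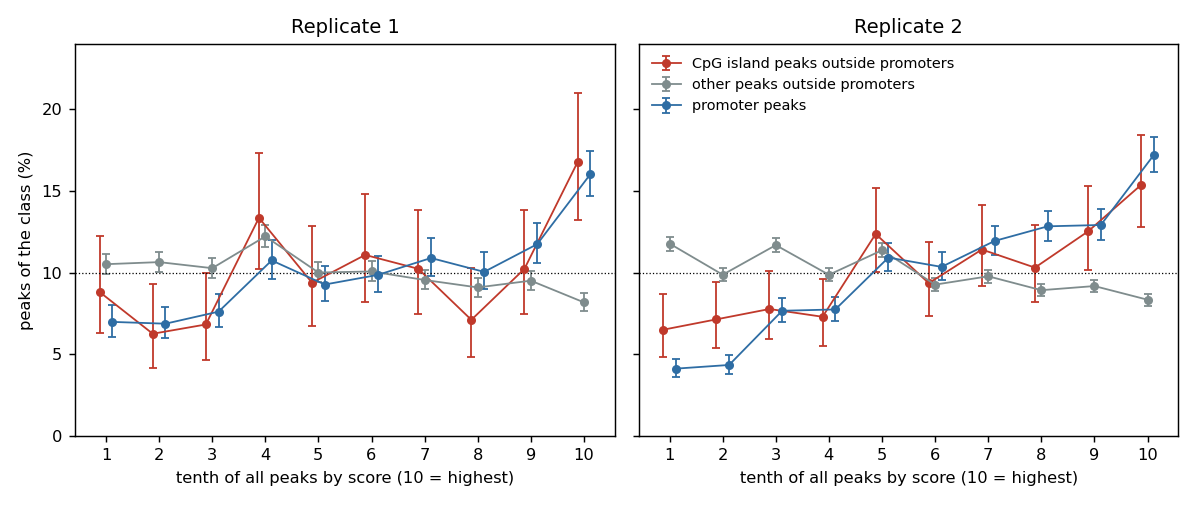
The horizontal axis is the rank of all peaks of a replicate by score in 10 bins (10 = highest), and the vertical axis is the percentage of each class in the bin, with Wilson 95% intervals; the dotted line is at 10%. Island peaks (red) held 16.8% of their class in the highest bin in replicate 1 and 15.4% in replicate 2, near promoter peaks (blue) and above the other peaks outside promoters (grey).

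The score distribution was broad. Island peaks in replicate 1 ranged in score from 3.58 to 54.5 with a median of 6.23, and those in replicate 2 from 3.42 to 117.2 with a median of 8.33. In the lowest 10% of scores lay 31 and 41 island peaks. The focus ratio, a fraction near 1 when tags sit on the sides of the centre expected for a single sharp site, had a median of 0.738 and 0.726 in island peaks. It was 0.738 and 0.727 in promoter peaks and 0.765 and 0.762 in the other peaks outside promoters.

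The forkhead heptamer TGTTTAC was sought on either strand, up to 100 bp from the peak centre. It was present in 91 of 352 island peaks of replicate 1 (25.9%, 21.6 to 30.7) and 126 of 631 of replicate 2 (19.97%, 17.04 to 23.3). The share over all peaks was 30.5% and 28.2%. It was lower in island peaks than in the other peaks outside promoters, where it was 35.4% (odds ratio 0.637, adjusted exact p = 0.00021) and 32.3% (odds ratio 0.523, adjusted exact p = 2.2e-11). It was higher than in promoter peaks, where it was 14.4% (odds ratio 2.07, adjusted exact p = 2.5e-07) and 10.9% (odds ratio 2.04, adjusted exact p = 9.2e-10). In windows of the same size 2000 bp from the island peak centres, only 2.56% and 2.61% held it (adjusted exact p = 1.0e-29 and 1.0e-34). Of 35116 RefSeq promoters of 300 bases, 3.42% held it.

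Base composition moved with these shares, and its part in them was not tested. The heptamer's letters in reverse order, CATTTGT, occurred in 0.852% and 0.951% of island peaks, in 5.00% and 5.34% of the other peaks outside promoters, and in 1.11% and 1.30% of promoter peaks. The distance to the TSS also moved with them, and the order of the classes changed with it. Within 1000 bp of the assigned TSS the heptamer was present in 40 of 142 island peaks (28.2%) and 17.7% of the other peaks in replicate 1, and in 63 of 221 (28.5%) and 18.1% in replicate 2. From 1000 to 5000 bp the shares were 29.3% and 39.6% in replicate 1, and 18.5% and 32.4% in replicate 2. These bins were not tested. Among all peaks within 5000 bp of the assigned TSS, where both bins are pooled, the heptamer was present in 28.6% of island peaks and 32.7% of the other peaks in replicate 1 (adjusted exact p = 0.243), and in 24.7% and 28.1% in replicate 2 (adjusted exact p = 0.226). Outside every GENCODE promoter, 29.0% of the island peaks of replicate 1 held it, a difference of -6.35 percentage points from all the other peaks outside promoters, which were not limited in this way (adjusted exact p = 0.0681). In replicate 2 the share there was 23.2%, a difference of -9.14 percentage points that still passed (adjusted exact p = 0.00028).

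**Figure D3:**
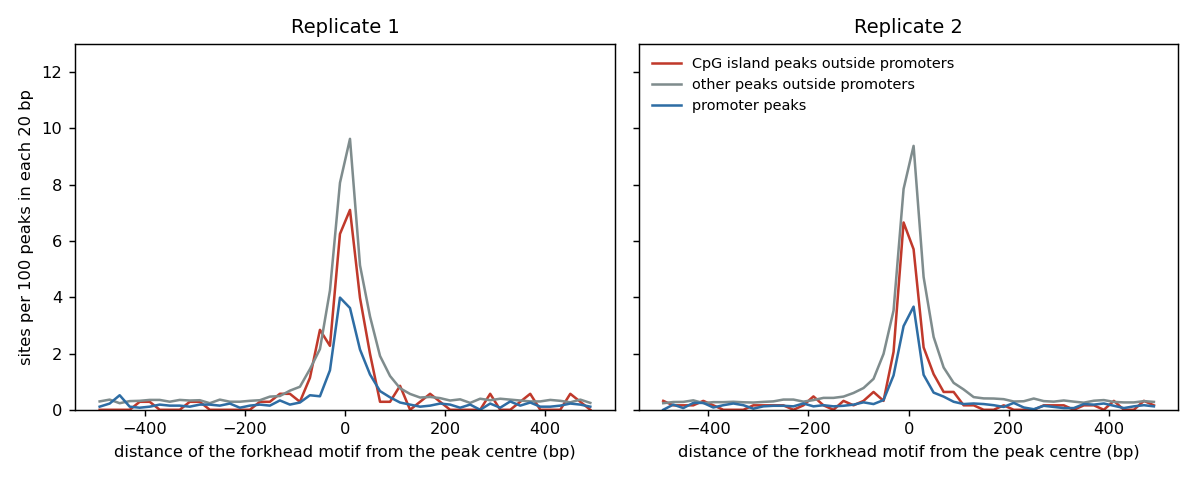
The horizontal axis is the distance of TGTTTAC from the peak centre in bp, and the vertical axis is the number of sites per 100 peaks in each bin of 20 bp, for 3 classes of peaks. Island peaks (red) reached 7.10 sites per 100 peaks in a central bin in replicate 1 and 6.66 in replicate 2, between promoter peaks (blue) and the other peaks outside promoters (grey).

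The heptamer was centred on the peaks. Within 20 bp of the centre, island peaks had 48 sites in replicate 1 and 79 in replicate 2. In the 600 bases from 200 to 500 bp away there were 12 and 23. Expressed per 100 peaks and 20 bp, the density was 6.65 and 6.11 at the centre and 0.114 and 0.122 away from it. The corresponding central densities were 8.78 and 8.55 in the other peaks outside promoters and 3.80 and 3.30 in promoter peaks.

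Island peaks with the heptamer had higher scores than those without it. Their median score percentile was 81.5 in replicate 1 and 83.8 in replicate 2, against 49.1 and 52.9. Of the peaks with the heptamer, 88 of 91 (96.7%, 90.8 to 98.9) recurred in replicate 2 and 92 of 126 (73.0%) in replicate 1. Without it, 188 of 261 (72.0%, 66.3 to 77.1) and 178 of 505 (35.2%, 31.2 to 39.5) recurred. The median focus ratio was 0.805 and 0.818 with the heptamer and 0.717 and 0.710 without it. Median GC content was 67.2% in both replicates with the heptamer and 67.7% and 68.2% without it. Score and recurrence move together, so these shares are not independent of each other.

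The share with the heptamer was highest in the strongest peaks. In the highest 20% of scores, 48 of 95 island peaks of replicate 1 (50.5%, 40.6 to 60.4) and 69 of 176 of replicate 2 (39.2%, 32.3 to 46.6) held it. In the lowest 20%, the share was 13.2% (6.55 to 24.8) and 8.14% (4.00 to 15.9). From low to high, the bins between held 14.1%, 15.3% and 24.6% in replicate 1. In replicate 2 they held 12.6%, 6.57% and 21.2%, so the rise there was not steady. The other peaks outside promoters ranged from 28.7% in the lowest to 52.0% in the highest bin of replicate 1, and from 29.6% to 43.0% in replicate 2. The intervals of the 2 classes overlapped in the highest bin and were apart in the lowest. In promoter peaks of the highest bin the share was 28.1% and 21.0%.

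**Figure D4:**
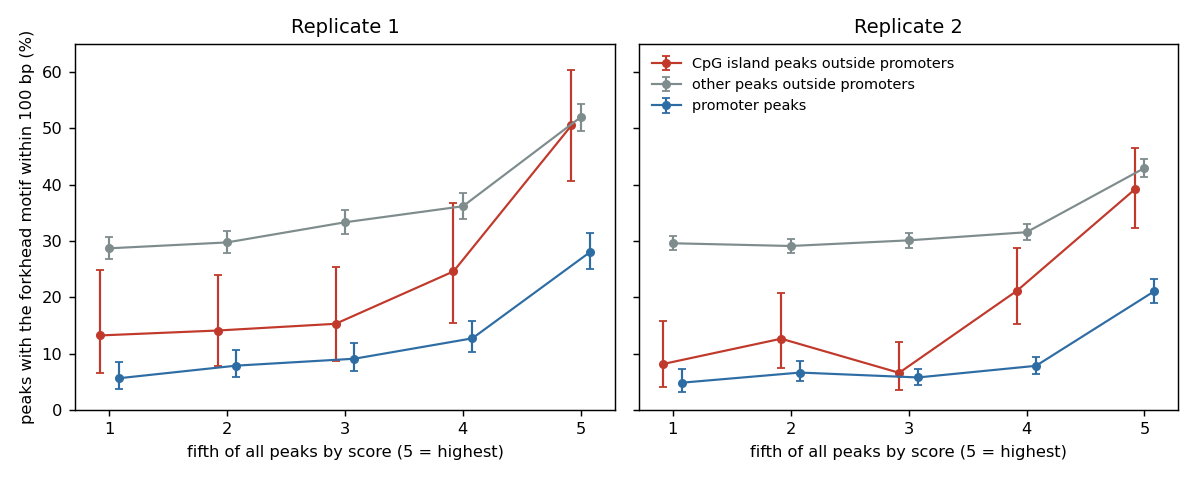
The horizontal axis is the rank of all peaks of a replicate by score in 5 bins (5 = highest), and the vertical axis is the percentage of peaks with TGTTTAC within 100 bp of the centre, with Wilson 95% intervals, by class. Island peaks (red) go from 13.2% in the lowest bin to 50.5% in the highest in replicate 1, where they meet the other peaks outside promoters (grey), and stay above promoter peaks (blue) there.

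Island peaks in introns held the heptamer in 27.5% and 23.8%, and those between genes in 22.8% and 13.9%. The share was 22.0% and 15.9% in a GENCODE promoter and 29.0% and 23.2% outside. These shares are descriptions, and their intervals overlapped except between introns and intergenic regions in replicate 2.

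A panel of 12 other motifs, known from promoters and enhancers, was counted in the same windows. The motifs searched were AP-1 (TGACTCA or TGAGTCA), CRE (TGACGTCA), ETS (CCGGAAG), NRF1 (GCATGCGC), SP1/KLF (GGGCGGGG), NFY (CCAATNAG), YY1 (AAGATGG), CTCF, ZBTB33 (CTCGCGAG), the E-box (CACGTG), TEAD (ACATTCC) and RUNX (TGTGGTT), all on both strands within 100 bp of the centre. In both replicates 8 of the 12 were more frequent in island peaks than in the other peaks outside promoters and 3 were less frequent, with p-values adjusted over 48 tests. With windows of 50 bp, the 8 became 7. YY1 passed in neither direction. Of the 8, CRE, ETS, NRF1, SP1/KLF, ZBTB33 and the E-box contain a CpG, the property behind the island label, and the CTCF motif is mostly G and C, so their calls against the other peaks outside promoters support nothing beyond that label, and their shares there are given as descriptions. The other of the 8, the NFY box, was present in 5.40% and 4.596% of island peaks and 2.24% and 2.12% of the other peaks outside promoters (adjusted exact p = 0.0019 and 0.00060). In promoter peaks it was present in 6.53% and 6.44%. Island peaks also lay in a GENCODE promoter more often, in 45.2% and 43.9% against 8.89% and 7.99% of the other peaks outside promoters. The part of this position in the NFY shares was not tested. Against promoter peaks, 1 of the 12 was more frequent and 2 were less frequent in both replicates. Island peaks were also richer in G and C than promoter peaks, so a higher share there does not separate a GC-rich motif from the label.

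The SP1/KLF box, a GC-rich promoter element, was the most frequent of them. It was present in 27.6% of island peaks in replicate 1 and 29.2% in replicate 2, against 1.80% and 1.83% of the other peaks outside promoters. In promoter peaks it was present in 23.0% (adjusted exact p = 0.0979) and 25.1% (adjusted exact p = 0.0482). The box contains a CpG, and the limits of GC content and CpG ratio were met by 84.4% and 84.8% of island peaks, against 67.6% and 66.9% of promoter peaks. These SP1/KLF tests therefore do not separate the box from the island label. The ETS motif, bound by a family that includes ELF2 and GABPA, was present in 8.81% and 10.1% of island peaks. That was above the 2.02% and 1.71% of the other peaks outside promoters and below the 18.01% and 18.4% of promoter peaks (adjusted exact p = 1.6e-05 and 3.3e-07). NRF1, a regulator of nuclear-encoded mitochondrial genes, followed the same order with 1.70% and 1.58% in island peaks and 4.06% and 4.03% in promoter peaks (adjusted exact p = 0.0441 and 0.0024). In the other peaks outside promoters the NRF1 motif was present in 0.287% and 0.304%. The E-box was present in 9.94% and 9.03% of island peaks, against 4.52% and 3.98% of the other peaks outside promoters. With windows of 50 bp, the SP1/KLF difference from promoter peaks in replicate 2 no longer passed (adjusted exact p = 0.231). The same was true of NRF1 against promoter peaks in replicate 1 (adjusted exact p = 0.397). At this window NRF1 was also no longer among the motifs more frequent than in the other peaks outside promoters in both replicates.

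The CTCF motif was the one of the 12 that was more frequent in island peaks than in promoter peaks past the threshold in both replicates. Median GC content was also higher in island peaks (67.7% and 68.2%) than in promoter peaks (63.2% and 63.7%). The call on this GC-rich motif therefore does not separate it from the island label, and the part of GC content was not tested. CTCF is the zinc finger protein that marks boundaries of chromatin loops. Its motif was found in 11 of 352 island peaks (3.12%, 1.75 to 5.51) and 20 of 631 (3.17%, 2.06 to 4.84). The share was 1.06% and 1.17% in the other peaks outside promoters and 1.33% and 1.28% in promoter peaks (adjusted exact p = 0.0322 and 0.0025). In RefSeq promoters it was 1.47%.

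The AP-1 motif, bound by FOS and JUN dimers, was the largest difference in the opposite direction. It was present in 3.12% and 3.49% of island peaks against 20.5% and 19.9% of the other peaks outside promoters (adjusted exact p = 3.0e-20 and 2.4e-32). The TEAD motif was present in 1.70% and 2.06% against 8.16% and 7.46%, and the RUNX motif in 1.99% and 1.74% against 8.05% and 8.56%. For AP-1, windows 2000 bp from the island peak centres held the motif in 2.70% and 3.33%, near the share in the peaks. For TEAD they held it in 2.13% and 2.54%, and for RUNX in 5.68% and 4.12%, above the share in the peaks. For the SP1/KLF box, these windows held it in 1.99% and 2.30%. GC content differed between the classes as given above, a property behind the island label. The calls for AP-1, TEAD and RUNX therefore do not separate these motifs from that label. The part of GC content in these shares was not tested.

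**Figure D5:**
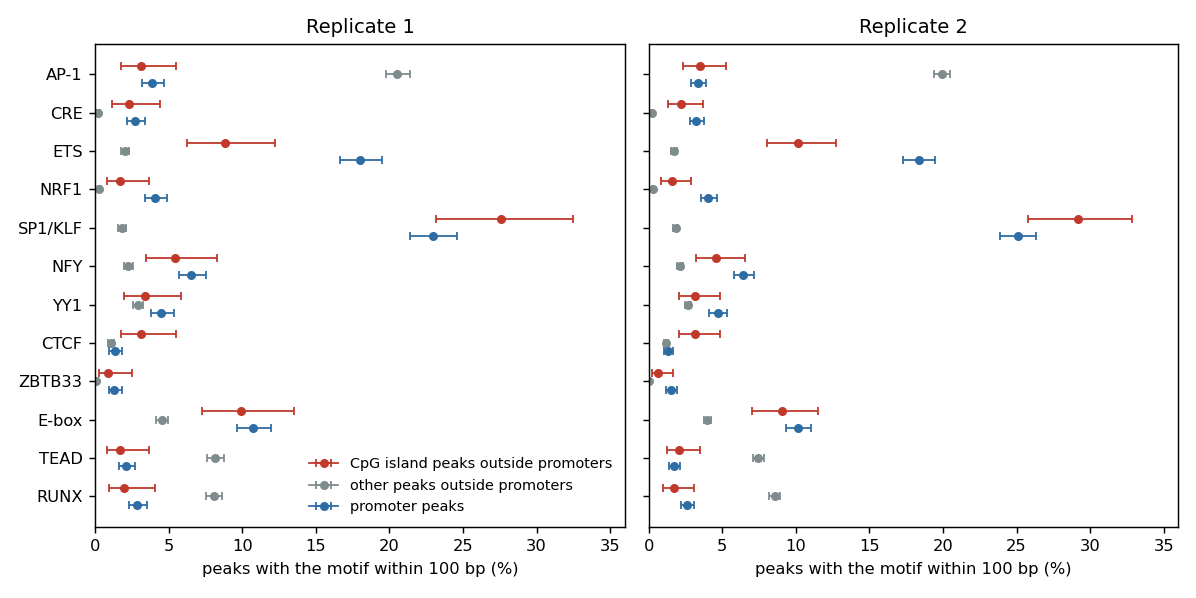
The horizontal axis is the percentage of peaks with each motif within 100 bp of the centre, with Wilson 95% intervals, for 12 motifs and 3 classes in each replicate. Island peaks (red) lie with promoter peaks (blue) for AP-1, TEAD and RUNX, between the 2 other classes for ETS, and above both for SP1/KLF and CTCF.

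The other motifs were also counted in island peaks with and without the heptamer. The SP1/KLF box was present in 27.5% and 32.5% of those with it and 27.6% and 28.3% of those without it. The ETS motif was present in 3 of 91 and 5 of 126 island peaks with the heptamer and in 28 of 261 (10.7%) and 59 of 505 (11.7%) without it. At least 1 of the 12 motifs was present in 48.4% and 46.8% of peaks with the heptamer and 53.6% and 54.1% of those without it. These shares are descriptions and were not tested.

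Genes with island peaks at 2 or more loci in both replicates were BAHCC1, BCOR, ELF2, FOS, HMGN2, JAK1, LINC01135, RALGDS, ZNF395 and ZRANB1. BCOR, a corepressor gene of the X chromosome, was the one with 3 such loci, all in intron 1 of the gene and each with 1 heptamer in both replicates. Their scores were low, 7.36 and 13.1 at the strongest, 4.53 and 5.95 at the second and 3.96 and 5.65 at the third. The 2 loci of FOS, a subunit of AP-1, scored 20.4 and 47.6 at -1551 bp from the TSS, where the heptamer was present, and 13 and 29.0 at -19472 bp, where it was absent. The 2 loci of JAK1, a cytokine receptor kinase, scored 15.1 and 37.2 in intron 1 and 6.60 and 7.88 in intron 2. ELF2, an ETS factor, had loci that scored 23.2 and 48.3 and 9.05 and 22.2, both with the heptamer. The second BAHCC1 locus scored 21.3 and 40.7, and its centre lay at -134 bp from a BAHCC1 transcript start in GENCODE.

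Each locus of the other genes with 2 loci scored at most 12.1 in replicate 1 and 17.3 in replicate 2. RALGDS, a guanine nucleotide exchange factor for Ral, had loci of 9.43 and 15.3 and of 6.04 and 17.3, both with the heptamer. ZNF395, a zinc finger gene, had loci of 12.1 and 17.0 and of 5.66 and 11.2, both with the heptamer. HMGN2, which encodes a nucleosome-binding protein, had loci of 6.41 and 11.2 and of 5.09 and 5.06 without it. The loci of LINC01135, a noncoding RNA gene, scored 7.36 and 16.5 and 6.41 and 9.22, and those of ZRANB1, a deubiquitinase gene, 5.85 and 10.1 and 5.09 and 6.25. Of these 5 genes, the heptamer was found at both loci of RALGDS and ZNF395 and at 1 locus of ZRANB1.

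Lists of gene families were read from the assigned gene names, beside the same share over all peaks. Developmental transcription factors, from families such as HOX, PAX, SOX and FOX, were assigned 7 of 352 island peaks (1.99%) in replicate 1 and 17 of 631 (2.69%) in replicate 2, against 0.930% and 0.946% of all peaks. They had 6 loci in both replicates, among them FOXK1, FOXO3, SIX4, FOXD1 and HOXB1. FOXO3, a forkhead factor that responds to insulin signaling, scored 24.1 and 42.4 and held the heptamer. HOXB1 scored 7.55 and 18, FOXD1 6.60 and 11.3, and SIX4 6.04 and 9.82, all without the heptamer.

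ZNF zinc finger genes were assigned 2.84% and 2.22% of island peaks, against 1.02% and 1.09% of all peaks. Their 8 loci in both replicates were at 7 genes, ZNF704 (20 and 35.5), ZNF777 (10.2 and 20.7), ZNF629 (8.87 and 14.4), ZNF185 (7.36 and 16.2), ZNF287 (6.79 and 11.7), ZNF487 (4.15 and 9.37) and both loci of ZNF395. Protocadherins were assigned 1 of 352 island peaks (0.284%) and 2 of 631 (0.317%), against 0.152% and 0.128% of all peaks. They had 1 locus in both replicates, near PCDH1 (14.1 and 33.2). Imprinted genes were assigned 1 island peak in each replicate (0.284% and 0.158%), against 0.1203% and 0.088% of all peaks. They had 1 locus in both, in CDKN1C, an inhibitor of cyclin-dependent kinases (6.04 and 9.67). There the heptamer fell within the window in replicate 2 alone. Genes with noncoding names were assigned 9.66% and 13% of island peaks, against 21.4% and 22.4% of all peaks. They had 26 loci in both replicates, the strongest at MIR4714, and the others scored between 3.58 and 13.4 in replicate 1. None of these lists was tested.

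Of the genes that the study names as targets or as stress or stemness genes, 2 had an island peak in both replicates. KLF9, a Kruppel-like factor gene, had one at -5470 bp from its TSS that scored 11.7 and 23.3. PDK1, which encodes pyruvate dehydrogenase kinase, had one in intron 1 that scored 8.49 and 12.6, at -7 bp from a GENCODE start of PDK1-AS1. Neither held the heptamer. These 2 were 0.568% and 0.317% of island peaks, against 0.233% and 0.198% over all peaks. IGF1R, which the study also names, had its intronic island peak assigned to MIR4714.

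Island peaks with no partner in the other replicate had lower scores. The best 5 in replicate 1 were at DERL1 (10.4, rank 1682), IQCJ-SCHIP1-AS1 (9.05), EEF2K (8.87), PMS2CL (8.49) and AKT2 (8.11). Those in replicate 2 were at FAM83A (20.7, rank 1419), EEF2K (19.3), ZNF335 (19), ACTB (18.3) and LINC02351 (16.7). EEF2K, which encodes the kinase of elongation factor 2, appears in both sets through neighbouring peaks that do not overlap, chr16:22190622-22190832 in replicate 1 and chr16:22189943-22190199 in replicate 2. The best of these peaks lay at score percentiles of 86.2 and 94.7.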

How the data were processed

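FOXK2 ChIP-seq peak lists of 2 biological replicates of OVCAR5 cells were used as deposited. The authors mapped reads to hg38 with Bowtie2 2.2.6 and called peaks with HOMER 4.10, per the study's methods and the submitters' processing notes. Each deposited list gives a peak score, scaled by the authors' software to each library, and a focus ratio, a fraction. Peaks had 211 bases in replicate 1 and 257 bases in replicate 2. Input libraries and total tag numbers were not analysed here, so sequencing depth is unknown.

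Island peaks were selected by the deposited annotation columns alone. A comparison with island promoter peaks had been planned. No promoter peak carries that name, and all promoter peaks were used. Each share was given a Wilson 95% interval (counting error only) and were compared within each replicate with two-sided Fisher's exact tests, adjusted by Benjamini-Hochberg over each family of comparisons (threshold 0.05). Peaks of a replicate come from 1 library, so p-values measure spread between peaks, not between cultures. Motifs and base composition were read from hg38 within 100 bp of the centre, with control windows 2000 bp to each side. Python 3.11.15 was used with scipy 1.17.1, statsmodels 0.14.6 and pysam 0.24.0, and transcript starts came from GENCODE 44. Overlap counting and motif searches were checked first on simulated peaks with known answers.

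Named genes were those of the best 15 loci in both replicates by mean score percentile, the best 5 unpaired island peaks of each replicate, genes with 2 or more loci in both, and gene list members with a locus in both. A few genes that meet this rule are not reported here. The class, the lists and the motifs were chosen with earlier results of these data known. Alternatives tried were named chromosomes, higher-scoring peaks, lists of equal length, stricter overlap, other motif windows and the core TGTTTAC or TGTTTAT, island peaks outside GENCODE promoters, other definitions of a transcript start, and each replicate alone. Comparison peaks in introns and between genes only, and peaks within 5000 bp of the TSS, were added after seeing the data.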

Additional observations from a re-analysis of the deposited data

How the results depend on the processing

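Of 144 alternative values of the counts and shares, 129 kept their direction and their side of the threshold. Island peaks against promoter peaks changed direction in 8, all differences in percentage points. Recurrence did so in the higher-scoring part of each list (1.84 in replicate 1 and 1.42 in replicate 2), within 5000 bp of the TSS (1.04 and 2.14) and with lists of equal length (6.21 in replicate 2, adjusted exact p = 0.0343). The share in the top 10% of scores did so with the top 20% (-0.77 in replicate 1), in the higher-scoring part (0.087 in replicate 2) and within 5000 bp (1.89 in replicate 2). Apart from the 6.21, no value on either side of these changes passed the threshold. With lists of equal length, recurrence against the other peaks outside promoters passed in replicate 1 (9.79, adjusted exact p = 0.0011). The lower share of TGTTTAC against the same peaks no longer passed outside GENCODE promoters in replicate 1 (-6.35) or within 5000 bp (-4.10 and -3.41), against -9.52 and -12.33 with all peaks; the cause was not tested. The higher-scoring part held 206 and 385 island peaks. With motif windows of 50 bp, 1 motif was less frequent than in promoter peaks. Of 48 values of single motifs, 44 kept their call and 4 no longer passed, 3 of NRF1 and 1 of the SP1/KLF box, all with windows of 50 bp. Taking the share of each replicate alone in place of their mean, the share of island peaks that recurred was 42.8% to 78.4%, each still set by overlap with the other list, in the top 10% of scores 15.4% to 16.8%, with TGTTTAC 19.97% to 25.9%, and at a GENCODE promoter 43.9% to 45.2%. No paired analysis was possible because input libraries, the samples that share replicate numbers with the ChIP libraries, were not analysed here. Total tag numbers are unknown, so no detection limit could be given for a peak missing from a list.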
